A study of Mus musculus with 2 samples.

Results

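Bile acids act on cells through membrane and nuclear receptors and leave them through ABC exporters. The 10 genes described here are 5 receptors and 5 transporters of this system, taken by symbol from a table of 15576 genes measured in mouse bone marrow-derived macrophages. The receptors are Gpbar1, S1pr2, Vdr, Nr1i3 and Rxra, and the transporters are Abcc3, Abcc4, Abcb1a, Abcb1b and Slco2b1. Every one of the 10 symbols had exactly 1 row.

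Total RNA of such macrophages was sequenced as 2 libraries. The DCA library is from macrophages exposed to 100 µM deoxycholic acid for 24 h, a bile acid formed by intestinal bacteria out of cholic acid. The NC library is from macrophages collected without it. The labels give no strain, genotype, age or vehicle, and they leave unclear whether RNA was taken at the end of the exposure or a day later. With 1 library per group nothing below has a replicate check, no p-value was computed, and each difference is between 2 libraries and not between 2 conditions.

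GPBAR1, also called TGR5, is a membrane receptor that couples to Gs, raises cAMP and responds best to secondary bile acids. S1PR2 is a receptor for sphingosine 1-phosphate that also responds to conjugated bile acids. VDR and CAR (the product of Nr1i3) are nuclear receptors that sense vitamin D and foreign compounds, and they also take part in the response to bile acids. Both bind DNA with RXR-alpha, the product of Rxra, as does FXR, the main bile acid receptor of liver and gut. ABCC3 and ABCC4 export organic anions, bile acid conjugates among them. Abcb1a and Abcb1b encode the mouse forms of P-glycoprotein, an exporter of lipophilic drugs. SLCO2B1 belongs to the OATP family, whose members are uptake carriers, so it is an entry route and not an exporter.

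The authors deposited FPKM, and whole reads could be rebuilt from it, with totals of 56.6 (DCA) and 59.2 (NC) in units of 1e6 reads. The deposited values divide by the lengths of every annotated transcript of the gene added together, so genes with many transcripts read too low and their FPKM cannot be compared with that of other genes. Levels are therefore also given as exon levels, which are reads per kilobase of the gene's merged exons and per 1e6 reads. Ratios are reads of DCA over reads of NC scaled to these totals, with an exact Clopper-Pearson 95% interval that covers counting error only. Macrophage markers were all found, 14 of 14, with an exon level of 152.5 in DCA and 162.7 in NC for Adgre1, which encodes F4/80, and 191.5 and 195.9 for Csf1r, the M-CSF receptor, whose exons overlap another gene. Markers of other cell types were present too. Where their mean FPKM reached 1, all 12 neutrophil and all 7 B lymphocyte markers were higher in DCA, with median ratios of 1.18 and 1.22. So were 2 of 2 T and NK lymphocyte, 6 of 7 mast cell and basophil and 3 of 4 dendritic cell markers, while both of the 2 platelet markers were lower. Over all genes with that mean 53.5% were higher. For all of these neutrophil, B, T and NK lymphocyte markers the 95% interval lay above equality. It did so for 3 of the 7 mast cell and basophil and 2 of the 4 dendritic cell markers, beside 25.6% of all genes with that mean and an interval. For 1 of the 2 platelet markers it lay below equality, beside 20.0%. None of 5 erythroid markers with a row reached that mean.

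Of the 5 receptors, S1pr2, Rxra and Nr1i3 had an FPKM above 1 in both libraries, and Vdr and Gpbar1 lay below 1 in both. For comparison, 37.3% of all genes in the table were below 1 in both. Among the transporters, Abcc3, Abcc4, Abcb1b and Abcb1a were above 1 in both libraries and Slco2b1 was below 1 in both. On the exon scale Vdr and Gpbar1 stayed below 1, while Slco2b1 came out above 1, with an interval that included 1 in NC (0.926 to 1.14). Vdr reached 1 in at least 1 library when each library was rescaled to a sum of 1e6 or when the longest annotated transcript served as length. Gpbar1 did not. Both settings raise the value of Vdr against an unchanged limit.

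**Figure D1:**
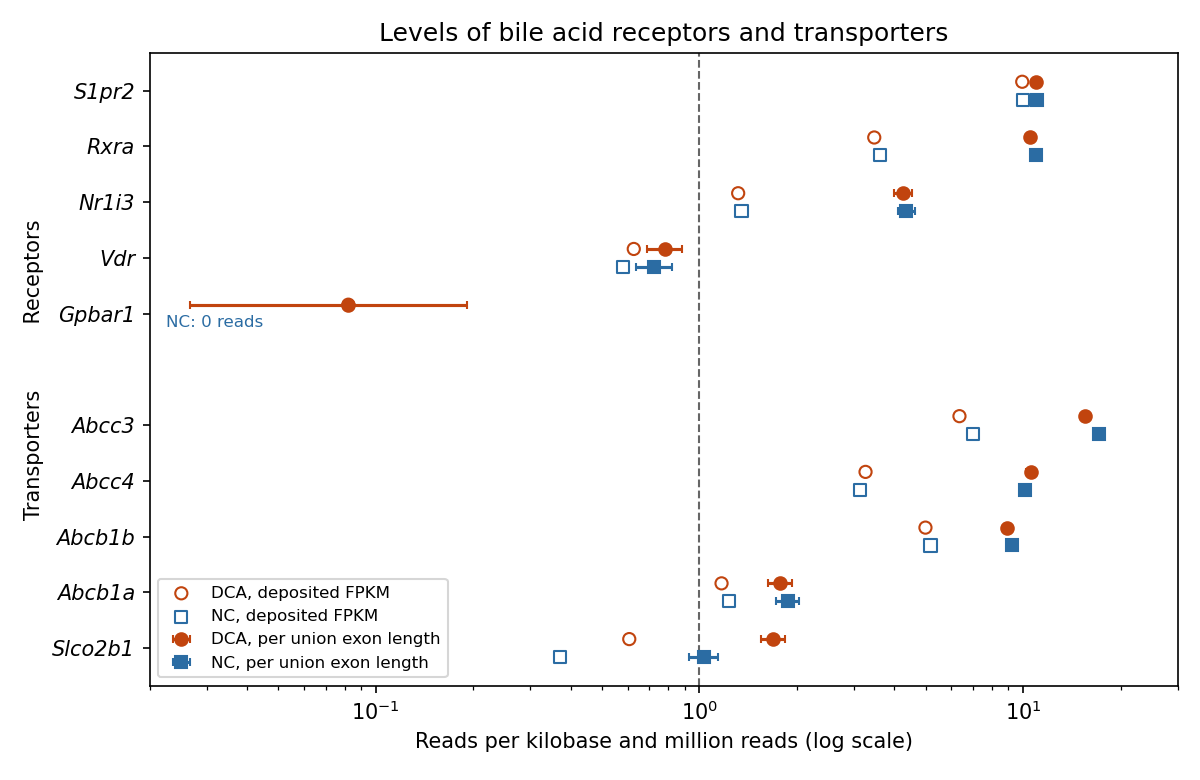
Levels of the 5 receptors and 5 transporters in DCA (circles) and NC (squares), on a log axis of reads per kilobase and 1e6 reads. Filled marks are exon levels with exact Poisson 95% intervals (counting error only), open marks are the deposited FPKM, and the dashed line marks 1. Gpbar1 has no NC mark because it had 0 reads there. Vdr and Gpbar1 lie left of the line by both measures, and Slco2b1 crosses it when its length is counted as merged exons.

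Gpbar1, the receptor most directly tied to deoxycholic acid, was barely detected. Its single annotated exon (ENSMUSG00000064272, GRCm38 chr1:74278550-74279624, plus strand, 1075 bases) had 5 reads in DCA and 0 in NC. The deposited FPKM was 0.0822 in DCA and 0 in NC. A count of 0 allows up to 3 reads, an exon level of 0.0471 in NC, and the interval of the exon level in DCA, 0.0267 to 0.192, reached below that floor. The counting interval of the ratio began at 0.959 and so included equality, which leaves no detectable difference at so few reads. In DCA 18.1% of the genes in the table had a lower exon level than Gpbar1.

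S1pr2 had, with Rxra, the higher exon levels among the receptors as computed over merged exons, and the interval of its ratio included equality. It lies on the minus strand at chr9:20962361-20976781 (ENSMUSG00000043895), with 4 annotated transcripts and no overlapping exon of another gene. Its FPKM was 9.94 in DCA and 10.01 in NC, with 4936 reads in DCA and 5204 in NC. The exon level was 10.9 in DCA and 11.03 in NC, above that of 69.6% and 69.9% of the genes. The ratio was 0.993 (0.955 to 1.03).

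The promoter of S1pr2 is shown because it was the promoter among those of the receptors and transporters with both motifs that were searched. RefSeq (GRCm38.p6) gave 13 windows of 300 bases, from 250 before to 50 after a start, for 9 of the 10 genes. The motifs were AGGTCA, the hexamer that nuclear receptors bind with RXR, and TGACGTCA, the element bound by CREB downstream of cAMP. Either strand was accepted and the matches did not overlap. The window is chr9:20976744-20977043 on the minus strand, written 5′ to 3′ with the matches in capitals.
S1pr2: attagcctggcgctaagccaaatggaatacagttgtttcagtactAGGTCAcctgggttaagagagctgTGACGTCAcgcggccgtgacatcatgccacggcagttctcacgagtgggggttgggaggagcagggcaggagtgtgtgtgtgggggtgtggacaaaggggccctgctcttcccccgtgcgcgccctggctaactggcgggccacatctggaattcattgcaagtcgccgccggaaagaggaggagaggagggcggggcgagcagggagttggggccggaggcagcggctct
Counted from the start, AGGTCA stands at positions -205 to -200 and TGACGTCA at -181 to -174. Of all 32851 RefSeq promoter windows, 16.3% hold AGGTCA and 1.79% hold TGACGTCA. Besides S1pr2, a window of Rxra held AGGTCA, and no window of these genes held the hexamer as a direct repeat with a spacing of 0 to 8 bases. A match of letters describes the window and does not show that a factor binds there.

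Rxra had an FPKM of 3.47 in DCA and 3.61 in NC. It lies on the plus strand at chr2:27676440-27762957 (ENSMUSG00000015846), and no exon of another gene overlaps it. The annotated summed length of 13363 bases did not give whole reads for this gene. Among all lengths from 0.5 to 2 times as long, 16603 bases was the only length to give whole reads in both libraries, with 3257 reads in DCA and 3546 in NC. The annotation behind the deposited values therefore seems to differ from the one used here for Rxra, and its exon level of 10.5 in DCA and 10.97 in NC carries that uncertainty. The ratio was 0.961 (0.916 to 1.01) and included equality. The Poisson intervals of the exon levels of Rxra and S1pr2 overlapped in each library, so their order was not settled. Both stood clearly above Vdr and Gpbar1. They also stood above the exon level computed for Nr1i3, which is uncertain because its exons overlap those of another gene.

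Vdr was present at a low level, above Gpbar1 and below the exon level computed for Nr1i3. It lies on the minus strand at chr15:97854425-97910630 (ENSMUSG00000022479), and no exon of another gene overlaps its exons. The reads numbered 250 in DCA and 242 in NC, an FPKM of 0.627 in DCA and 0.580 in NC. Its exon level was 0.782 in DCA and 0.723 in NC, and the exon level of S1pr2 was 14.0 times as high in DCA and 15.2 times in NC. The ratio of 1.08 (0.902 to 1.30) included equality.

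Nr1i3 had an FPKM of 1.32 in DCA and 1.35 in NC, but how reads in the exonic bases it shares with a neighbour were counted is not known. Reads there cannot be told from those of the neighbour unless the counting used strand, which no source used here states. If such reads were left out of the counts, the exon level of Nr1i3 reads too low. Nr1i3 lies on the plus strand at chr1:171213970-171220701 (ENSMUSG00000005677). Exons of Tomm40l on the minus strand cover 3304 (74.9%) of its 4414 exonic bases. The product of Tomm40l is related to the import channel of the mitochondrial outer membrane. Of its 1074 coding bases, 806 (75.0%) lie in Tomm40l exons and 268 do not. Nr1i3 counted 1063 reads in DCA against 1139 in NC, and Tomm40l counted 1198 in DCA against 1251 in NC. The exon levels were as close, at 4.26 in DCA and 4.36 in NC for Nr1i3 and 4.12 and 4.11 for Tomm40l. The ratio of Nr1i3 was 0.977 (0.898 to 1.06), and summed over both genes it was 0.9901 (0.934 to 1.05), so neither reading gave a difference beyond counting error. A read assigned to both genes would be repeated in that sum, which would make its interval too narrow. CAR is known mainly from liver. Of 7 hepatocyte markers, only Hnf4a had a row here, with 4 reads in each library.

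Every receptor thus had a counting interval that included equality. By exon level as computed, the order was S1pr2 and Rxra, then Nr1i3, Vdr and Gpbar1, and it was the same in DCA and NC. The place of Nr1i3 in that order is not settled. Tomm40l exons cover 74.9% of its exonic bases, and how reads there were counted is not known.

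Among the transporters, Slco2b1 was higher in DCA and Abcc3 lower, and the intervals of Abcc4, Abcb1a and Abcb1b included equality. None of the 4 transporters with a mean FPKM of at least 1, and none of the 3 such receptors, was 1.2-fold apart on FPKM + 1. Over all 9656 genes with that mean, DCA was at least 1.2-fold higher for 2.11% (204) and at least 1.2-fold lower for 0.715% (69). With each library rescaled to a sum of 1e6 the counts were 728 higher and 488 lower, a more even split. Rescaling raised every value against the same pseudocount and filter. The counting interval lay above equality for 25.6% and below it for 20.0% of the genes with rebuilt reads and that mean, and Abcc3 was the member among these 7 for which it excluded equality. A share of 1 in 7 is no larger than that background. The median difference of the 7 genes was -0.04 in log2(FPKM + 1), with 6 of 7 lower in DCA, beside a median of 0.0067 and 46.5% lower over all genes with that mean.

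**Figure D2:**
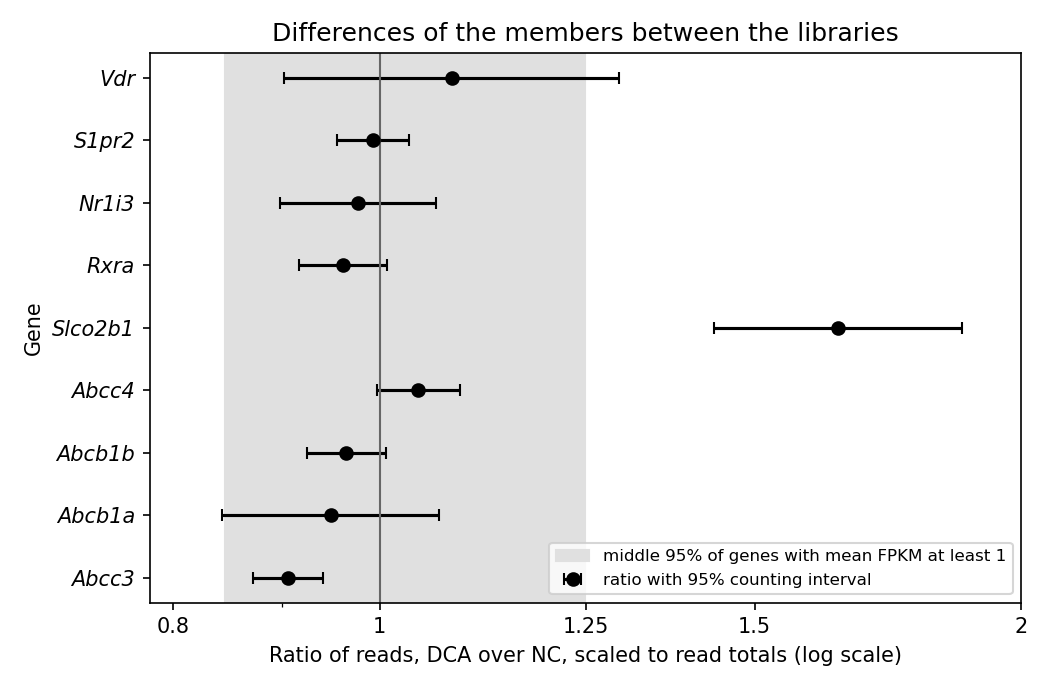
Ratio of reads in DCA over NC on a log axis for the 9 genes with reads in both libraries, with 95% counting intervals and the middle 95% of all genes whose mean FPKM was at least 1 in grey (0.846 to 1.248). Slco2b1, at 1.64, lies to the right of the grey band, and the other 8 points lie inside it, with Abcc3 at 0.906 the lowest. Slco2b1 and Vdr had a mean FPKM below 1 and so are not among the genes of the band.

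Slco2b1 showed the largest ratio of the 9 genes with reads in both libraries, at a low level. It counted 569 reads in DCA against 363 in NC. Its FPKM was 0.607 in DCA and 0.370 in NC, and its exon level was 1.69 in DCA and 1.03 in NC. The ratio was 1.64 (1.44 to 1.88). Of 2218 genes with 500 to 2000 reads over both libraries, 28 (1.26%) had a ratio at least as high, and the counting interval lay above equality for 23.8% and below it for 15.2%. The read range was chosen after these values were seen. In log2(FPKM + 1) the difference was 0.23, short of the 1.2-fold limit, on a scale that understates the change of genes with an FPKM below 1. On log2(exon level + 1) it was 0.41, past that limit, as it was for 2.97% of the 10474 genes with a mean exon level of at least 1.

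The gene for SLCO2B1 lies on the minus strand at chr7:99657804-99711340 (ENSMUSG00000030737), with 9 annotated transcripts. Exons of Gm15635 cover 471 and exons of Gm34280 cover 78 of its 5958 exonic bases, both on the plus strand, and neither has a row in the table used here. In bulk RNA, more cells that carry a transcript and more transcript per cell cannot be told apart. Markers of several other cell types were higher in DCA with Slco2b1. The summed exon level of 12 neutrophil markers was 6532 in DCA and 5554 in NC, and all 12 were higher. For 9 B lymphocyte markers it was 254.9 in DCA and 207.2 in NC, with 7 of the 7 above the filter higher. For 8 eosinophil markers it was 128.8 in DCA and 89.3 in NC, with 6 of 6 higher and a median ratio of 1.34. None of these 3 lists had a marker at 0 reads in a library. The 14 macrophage markers summed to 11887 in DCA and 11810 in NC, mostly through Lyz2. Of the 14, 11 were lower in DCA, beside 46.5% of all genes with that mean. The part of these cells in the difference of Slco2b1 was not tested.

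Abcc3 had the highest exon level of the transporters and was lower in DCA. It lies on the minus strand at chr11:94343295-94392997 (ENSMUSG00000020865) with no overlapping exon of another gene. Its FPKM was 6.36 in DCA and 7.02 in NC, with 5022 reads in DCA and 5804 in NC, and its exon level was 15.6 in DCA and 17.2 in NC. The ratio was 0.906 (0.872 to 0.941), and 6.13% of the genes whose mean FPKM was at least 1 had a lower difference in log2(FPKM + 1). The 14 macrophage markers had a median ratio of 0.952, with 3 higher and 11 lower in DCA, beside 53.5% and 46.5% over all genes with that mean. Their part in the difference of Abcc3 was not tested.

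Abcc4, which also exports cAMP and prostaglandins, had 3814 reads in DCA and 3828 in NC. It lies on the minus strand at chr14:118482692-118706219 (ENSMUSG00000032849), and its 6 transcripts sum to 20686 bases over 6389 merged exonic bases. The deposited FPKM of 3.26 in DCA and 3.13 in NC is for that reason lower than the exon level, 10.6 in DCA and 10.1 in NC. The ratio was 1.04 (0.997 to 1.09). The exon level of Abcc3 was 1.48 times that of Abcc4 in DCA and 1.70 times in NC.

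Both P-glycoprotein genes were expressed, Abcb1b at about 5 times the exon level of Abcb1a. Abcb1b (ENSMUSG00000028970, chr5:8798147-8866315, plus strand) had an FPKM of 4.99 in DCA and 5.17 in NC, with 4032 reads in DCA and 4374 in NC, and an exon level of 8.92 in DCA and 9.25 in NC. Abcb1a (ENSMUSG00000040584, chr5:8660077-8748575, plus strand) had an FPKM of 1.17 in DCA and 1.23 in NC, with 551 reads in DCA and 608 in NC, and an exon level of 1.78 in DCA and 1.87 in NC. The exon level of Abcb1b was 5.02 times that of Abcb1a in DCA and 4.93 times in NC. Their ratios were 0.965 (0.924 to 1.01) for Abcb1b and 0.948 (0.844 to 1.07) for Abcb1a, and 0.963 (0.925 to 1.002) for the sum of both.

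The coding sequences of these neighbours are shown because their likeness limits how reads are shared out. Each has 3828 coding bases, of which 3819 could be aligned and 3360 (88.0%) were identical, with a longest identical run of 338 bases. Of all stretches of 100 bases of the main transcript, 7.49% of those of Abcb1a also occur in Abcb1b and 8.72% of those of Abcb1b in Abcb1a. For stretches of 50 bases the shares were 15.5% and 18.0%. No source used here gives the read length or says how reads that match both were treated. The first stretch below is the first of 120 bases with 0 differences, shared by coding bases 1357 to 1476 of Abcb1a (chr5:8702387-8702506) and 1366 to 1485 of Abcb1b (chr5:8824707-8824826).
Abcb1a and Abcb1b: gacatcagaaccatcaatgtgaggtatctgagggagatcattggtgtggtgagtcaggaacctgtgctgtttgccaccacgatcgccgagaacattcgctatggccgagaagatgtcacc
The next pair is the gap-free stretch of 120 bases with the most differences, 38, with the differing bases in capitals. It covers coding bases 2128 to 2247 of Abcb1a (from chr5:8715817 to 8719026, over 2 exons) and 2134 to 2253 of Abcb1b (from chr5:8827778 to 8828870, over 2 exons), on the plus strand of GRCm38.
Abcb1a: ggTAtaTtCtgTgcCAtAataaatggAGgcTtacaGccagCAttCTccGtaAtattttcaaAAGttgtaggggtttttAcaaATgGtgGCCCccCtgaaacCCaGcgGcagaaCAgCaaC
Abcb1b: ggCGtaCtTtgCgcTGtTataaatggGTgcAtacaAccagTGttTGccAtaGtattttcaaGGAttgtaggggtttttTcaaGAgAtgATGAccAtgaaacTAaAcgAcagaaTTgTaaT
A read that lies wholly in the first stretch fits both genes equally, so the split of reads between Abcb1a and Abcb1b is uncertain. Abcb1a shares 553 of 5480 exonic bases and Abcb1b 143 of 7990 with antisense genes that have no row here, Gm42686 and Gm5106.

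Set beside the other S1P receptors, S1pr2 ranked below S1pr1 and above S1pr4. It made up 24.7% of the summed exon level of the 5 genes in DCA and 26.9% in NC, and S1pr1 made up 51.6% in DCA and 54.4% in NC. On FPKM + 1, S1pr4 and S1pr3 were 1.2-fold or more higher in DCA. S1pr4 counted 1205 reads in DCA against 964 in NC, with a ratio of 1.31 (1.201 to 1.43). For S1pr3, whose exons overlap another gene, 321 reads in DCA stood against 211 in NC, and the ratio was 1.59 (1.33 to 1.90). S1pr5, also with an overlap, had 40 reads in DCA but 4 in NC. S1PR4 is known from lymphocytes and other blood cells, and the B lymphocyte markers had a median ratio of 1.22 in the same libraries, whose part in these differences was not tested. Sgpl1, the lyase that breaks down sphingosine 1-phosphate, and the ceramidase gene Asah1 had ratios of 0.982 (0.968 to 0.997) and 0.996 (0.979 to 1.01).

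Rxra stood beside Rxrb, which encodes RXR-beta and had the higher exon level, 16.1 in DCA and 15.5 in NC, with a ratio of 1.04 (0.996 to 1.09). Rxrg had no row in the table used here, nor did Nr1h4, which encodes FXR, or Nr1i2, which encodes PXR. Nr0b2, the repressor SHP that FXR induces in liver, had 16 reads in DCA but 5 in NC. Nr1h2, which encodes LXR-beta, had an exon level of 27.06 in DCA and 26.4 in NC, and the glucocorticoid receptor gene Nr3c1 had 22.2 in DCA and 21.8 in NC. The retinoic acid receptor genes Rara and Rarg had ratios of 0.934 (0.883 to 0.987) and 1.01 (0.942 to 1.08). Pparg, chosen after its value was seen, counted 678 reads in DCA against 940 in NC, with a ratio of 0.755 (0.683 to 0.834). On FPKM + 1, none of the 3 nuclear receptors and none of the 6 other RXR partners with a mean FPKM of at least 1 was 1.2-fold apart, but on exon level + 1 Pparg was, at -0.33 in log2. Below that mean, Rora, which encodes the orphan receptor ROR-alpha and overlaps another gene, counted 743 reads in DCA against 168 in NC, with a ratio of 4.63 (3.91 to 5.51). Its exon level was 1.005 in DCA and 0.217 in NC.

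Abcc3 and Abcc4 made up 26.2% and 17.8% of the summed exon level of 6 ABCC genes in DCA, and 27.8% and 16.4% in NC. Abcc1, a broad exporter of glutathione conjugates, had 33.5% in DCA and 32.9% in NC, and Abcc5 had 20.4% in DCA and 20.6% in NC. The ratios of Abcc1 and Abcc5 were 0.977 (0.957 to 0.998) and 0.948 (0.918 to 0.978). Abcc2, the canalicular exporter of liver, stayed at 0.415% in DCA and 0.349% in NC. Abcb11, the bile salt export pump, had no row in the table used here. Abcg2, another multidrug exporter, counted 451 reads in DCA against 605 in NC, and its ratio was 0.780 (0.689 to 0.883). Of the 9 ABCB genes whose mean FPKM was at least 1, Abcb1a and Abcb1b included, 6 were higher and 3 lower in DCA. Over all genes with that mean 53.5% were higher and 46.5% lower. Abcb6, a porphyrin transporter whose exons overlap another gene, was past 1.2-fold at a ratio of 1.30 (1.22 to 1.39). Tap2, a peptide transporter of antigen presentation that overlaps other genes, had a ratio of 1.09 (1.05 to 1.133).

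**Figure D3:**
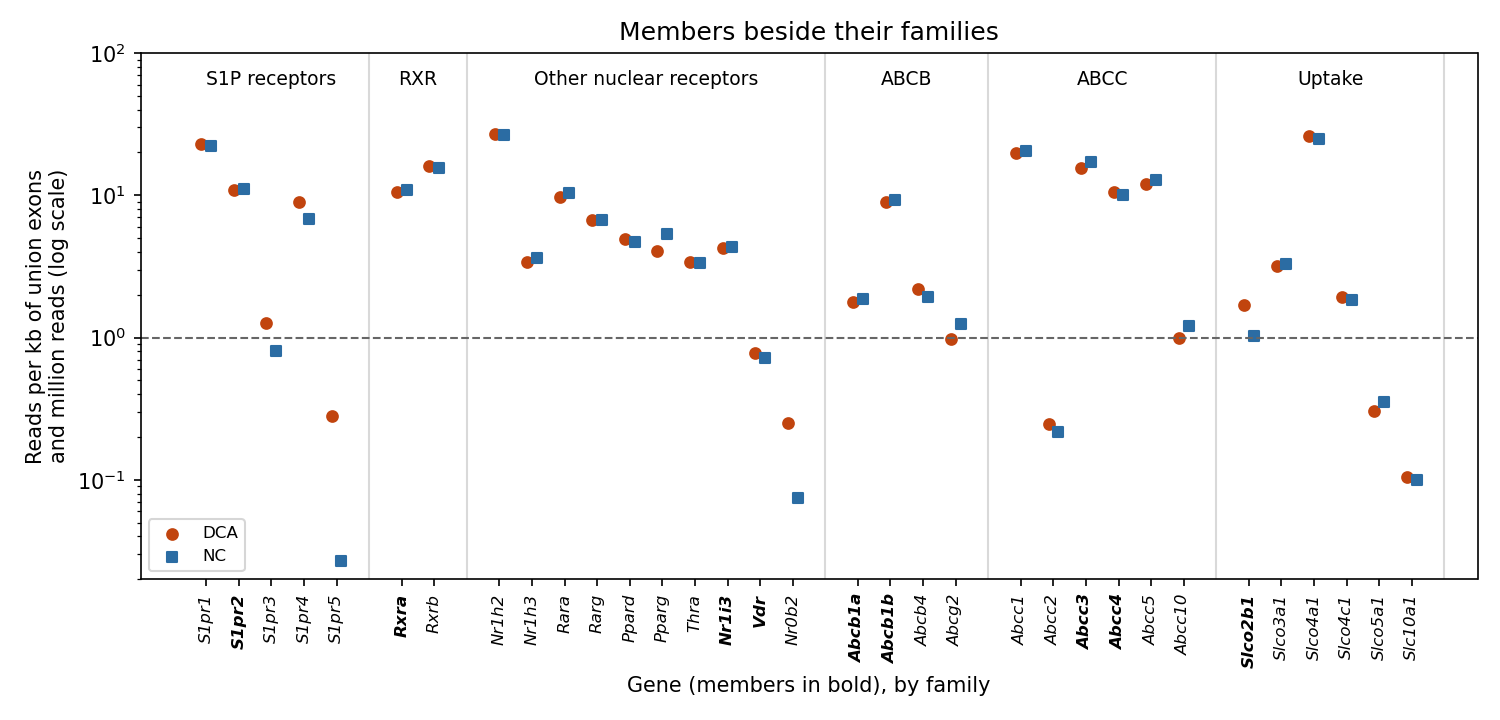
Exon levels in DCA (circles, left) and NC (squares, right) on a log axis for the members (bold) and other genes of their families. S1pr2 lies between S1pr1 and S1pr4, Abcc3 below Abcc1, and Slco2b1 below Slco4a1 in both libraries, and the dashed line marks 1.

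Bile acid uptake carriers of liver and gut were low or had no row. The sodium-dependent carrier gene Slc10a1 had 13 reads in each library, and Slc10a2, Slco1a1, Slco1a4 and Slco1b2 had no row. Of the OATP genes, Slco4a1 had the highest exon level, 25.98 in DCA and 24.9 in NC, and a ratio of 1.04 (1.01 to 1.08). Slco2b1 lay below Slco4a1, Slco3a1 and Slco4c1 in both libraries, but in DCA its Poisson interval (1.55 to 1.83) overlapped that of Slco4c1 (1.77 to 2.10), so that order was not settled there. Slc10a3, which overlaps another gene, had a ratio of 0.911 (0.839 to 0.988).

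Downstream of GPBAR1 the signalling genes were present although the receptor was barely detected. All 27 listed genes of Gs signalling had a row and 19 had a mean FPKM of at least 1. None of the 19 was 1.2-fold apart on FPKM + 1, and their median difference was 0.02 in log2(FPKM + 1). Of the 18 with an interval, it lay above equality for 6 and below it for 2, beside 25.6% and 20.0% over all genes. Grk2, a kinase that desensitises such receptors, had an exon level of 104.8 in DCA and 103.8 in NC. Prkar1a, the regulatory subunit of protein kinase A, had a ratio of 0.988 (0.970 to 1.01). Adcy9, an adenylyl cyclase gene chosen after its value was seen, counted 746 reads in DCA against 1041 in NC, with a ratio of 0.750 (0.682 to 0.825), and was past 1.2-fold lower on exon level + 1. Of 18 listed cAMP and CREB response genes, 10 had a mean FPKM of at least 1, and none of the 10 was 1.2-fold apart. In DCA 3 of them were higher and 7 lower, beside 53.5% and 46.5% over all genes with that mean. Of the 9 with an interval, it lay above equality for 2 and below it for 3, beside 25.6% and 20.0%. Below that mean, the cytokine gene Il10 counted 13 reads in DCA against 49 in NC, with a ratio of 0.278 (0.138 to 0.520). Nr4a2, also below that mean, counted 158 reads in DCA against 118 in NC, with a ratio of 1.40 (1.10 to 1.79). Fos, an immediate early gene, had a ratio of 0.953 (0.928 to 0.979), and Thbs1, which overlaps another gene, 1.15 (1.14 to 1.17).

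The genes listed for signalling after S1PR2 all had a mean FPKM of at least 1, 15 of 15, and none was 1.2-fold apart on FPKM + 1, with a median difference of -0.02 in log2(FPKM + 1). Gnai2 and Gnai3, which encode inhibitory G protein subunits, had ratios of 0.988 (0.976 to 1.001) and 1.01 (0.982 to 1.03). Rgs1, which shortens G protein signals and was chosen after its value was seen, counted 2807 reads in DCA against 3693 in NC, with a ratio of 0.795 (0.757 to 0.836), and was past 1.2-fold lower on exon level + 1. Of 5 other membrane receptors bound by bile acids with that mean, none was 1.2-fold apart. Fpr1, a formyl peptide receptor of neutrophils and macrophages, had an exon level of 44.98 in DCA and 38.96 in NC, and the integrin gene Itgb1 had a ratio of 0.964 (0.9501 to 0.978). The neutrophil markers were also higher in DCA, and their part in the difference of Fpr1 was not tested.

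Genes that report on the nuclear receptors were mostly low. Cyp24a1, the classical VDR target, counted 3 reads in DCA against 0 in NC, and Cyp27b1, which makes the active form of vitamin D, counted 5 against 0. Both counting intervals included equality. Of the 5 listed genes of the VDR axis with a mean FPKM of at least 1, 2 were higher and 3 lower in DCA. Over all genes with that mean 46.5% were lower. The higher ones were Cyp27a1, with a ratio of 1.19 (1.10 to 1.29), and Thbd, with 1.05 (0.991 to 1.11). Cd14, a lipopolysaccharide coreceptor that vitamin D raises in human monocytes, had a ratio of 0.94 (0.913 to 0.968), and Slc37a2, which overlaps another gene, 0.876 (0.857 to 0.894). Of 15 listed targets of FXR, PXR and CAR, 9 had no row, among them Cyp2b10 and Cyp3a11. The 3 with a mean FPKM of at least 1 had ratios of 1.128 (1.04 to 1.23) for Abcb4, 1.09 (1.01 to 1.19) for Gadd45b and 0.946 (0.925 to 0.966) for Por. The other 3 with a row were below that mean, and their intervals lay above equality. Over all genes with a mean FPKM under 1 and an interval, it lay above equality for 20.4% and below it for 16.5%. Ugt1a1, a bilirubin-conjugating enzyme gene that shares exons with its neighbours, counted 115 reads in DCA against 39 in NC. Its ratio was 3.09 (2.13 to 4.56). The neighbour Ugt1a6a, which also shares exons, had 804 reads in DCA against 1029 in NC and a ratio of 0.818 (0.745 to 0.898). Slc51a, a subunit of a bile acid exporter that overlaps another gene, counted 27 in DCA against 10 in NC, with a ratio of 2.83 (1.33 to 6.54), and Nr0b2 had a ratio of 3.35 (1.17 to 11.7). Cyp7a1, Cyp8b1 and Cyp7b1, which make bile acids in liver, were listed at 0 in both libraries. Hsd17b4 and Scp2, peroxisomal genes of bile acid synthesis, had ratios of 1.02 (0.985 to 1.05) and 0.979 (0.946 to 1.01). Of the conjugation genes, Gstm1 had a ratio of 1.003 (0.980 to 1.03), and Ugt1a7c, which shares exons with its neighbours, 0.938 (0.915 to 0.961). All 12 coregulators had a mean FPKM of at least 1 and none was 1.2-fold apart. In DCA 8 of 12 were lower, beside 46.5% over all genes with that mean. Ncoa3, a coactivator gene that overlaps another gene, had a ratio of 0.961 (0.942 to 0.980), and Tbl1x, of the NCoR corepressor complex, 1.04 (1.01 to 1.08).

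Over the 15 lists, 167 of 196 named genes other than the members had a row and 109 had a mean FPKM of at least 1. Of the 109, 3 reached 1.2-fold higher in DCA (S1pr4, S1pr3 and Abcb6) and 0 reached 1.2-fold lower, beside 2.11% and 0.715% over all genes. On exon level + 1, 118 had a mean of at least 1, of which 4 reached 1.2-fold higher (those 3 and Gstt2, a glutathione transferase gene) and 3 reached 1.2-fold lower (Pparg, Adcy9 and Rgs1), beside 2.97% and 1.32% over all genes. Of 50 list genes with a mean FPKM under 1 and an interval, it lay above equality for 14 and below it for 6, beside 20.4% and 16.5% of all such genes. With no replicates there was no test behind any of these counts. Over the 109 the median difference was 0.002 in log2(FPKM + 1), with 56 genes higher and 53 lower.

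**Figure D4:**
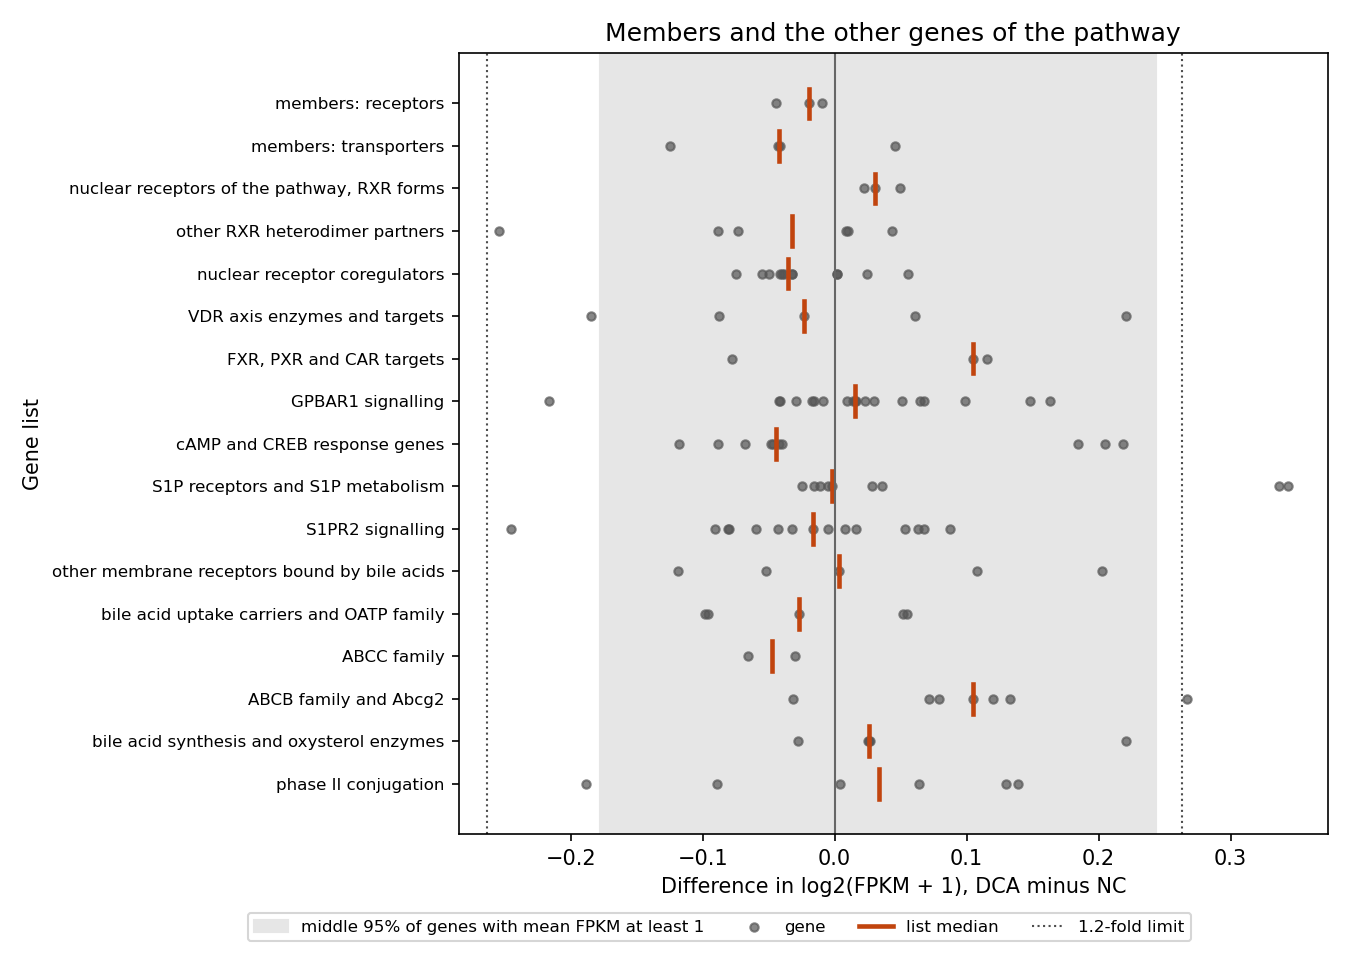
Difference in log2(FPKM + 1), DCA minus NC, for genes whose mean FPKM was at least 1 in the 2 groups of members and the 15 other lists of the pathway. Points are genes, bars are list medians, dotted lines mark 1.2-fold and the grey band the middle 95% of all such genes. The points past 1.2-fold are S1pr4, S1pr3 and Abcb6, all on the higher side.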

How the data were processed

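Total RNA of 1 DCA and 1 NC library of mouse macrophages was analysed, each placed by its treatment label. The authors deposited FPKM for 15576 genes. The build was GRCm38 (mm10), and HTSeq 0.6.0, DESeq2 3.0, STAR 2.5.0c, bedtools 2.17.0 and Picard 1.126 are named with no role, per the submitters' processing notes. No source used here gives the gene length, strand setting or gene filter.

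GENCODE vM21 (GRCm38) supplied lengths, coordinates (1-based) and exon overlaps for 15548 identifiers. Reads were rebuilt as FPKM times summed transcript length times the read total, found from the spacing of low values. Of 11794 genes with a read and fewer than 5000, 96.4% came out whole in both libraries within 0.05 of a read. For list genes with reads in both libraries that did not, whole lengths were scanned. A single length settled Rxra, while Vegfa (2 lengths) and Gnas (0 lengths) got no interval. Sphk1 and Klf1 did not come out whole either. With 0 reads in a library they were not scanned, and they got no interval. Exon levels divide by merged exons.

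A gene was counted as apart at 1.2-fold on FPKM + 1 (pseudocount 1) with a mean FPKM of at least 1. PCR copies are not independent molecules, so intervals and floors cover counting error only. Scripts were tested on simulated data, with Python 3.11.15, scipy 1.17.1, pandas 2.3.3 and Biopython 1.88.

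The members and lists were chosen with earlier results of these data known. Named are all members and, from each list, genes at least 1.2-fold apart and the 2 with the highest mean FPKM, of which 1 is not reported here. Further receptors and transporters of the lists are named with their reads. Pparg, Adcy9, Rgs1, Gstt2, Rora, Ugt1a1, Ugt1a6a, Slc51a, Cyp27a1, Thbd, Nr4a2 and Il10 were chosen after their values were seen. Alternatives were other pseudocounts, filters, scalings and lengths, and leaving out genes with overlapping exons.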

Additional observations from a re-analysis of the deposited data

How the results depend on the processing

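The difference of each member kept its sign under both scalings. A pseudocount, a filter or a length shared by the libraries cannot change a member's sign. That of Slco2b1, 0.23 in log2(FPKM + 1), came to 0.59 with a pseudocount of 0.1, 0.53 with each library rescaled to a sum of 1e6, 0.41 with exon levels and 0.46 with the longest annotated transcript as length, an alternative chosen after seeing the data. The median difference of the members ranged from -0.05 to -0.01.

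The numbers of genes at least 1.2-fold higher and lower in DCA, 204 and 69, came to 357 and 170 with a pseudocount of 0.1, 54 and 17 with a pseudocount of 5, 323 and 139 with no filter, 66 and 18 at a mean FPKM of at least 5, 728 and 488 after rescaling to 1e6, 311 and 138 with exon levels, 370 and 175 with the longest transcript, and 133 and 30 without genes whose exons overlap. Median-of-ratios size factors gave 192 and 76. The number of receptors below the limit in both libraries, 2, was 1 with an FPKM limit of 0.5, 1 after rescaling to 1e6 and 1 with the longest transcript, and 3 with an FPKM limit of 2. The deposited FPKM summed to 151621 in DCA and 150233 in NC. Rescaling to 1e6 therefore raised every value against the fixed pseudocount, filter and FPKM limit. The cause of the other shifts was not tested. Of 134 values for the medians of the other lists, 9 had the opposite sign.

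No paired analysis was possible because each group has 1 library and leaving a library out gives no comparison. Counting error limits Gpbar1 most, at 5 reads in DCA and 0 in NC.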
